A study of Mus musculus with 8 samples.

Results

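The genes described here encode the lamins and the proteins that sit beside them at the inner nuclear membrane, together with the protease that finishes lamin A. They were chosen by name, and the rows with the symbols Lmna, Lmnb1, Lmnb2, Lbr, Emd, Tmpo, Lemd2, Lemd3, Banf1 and Zmpste24 were read from the count table of every library. These are 10 of the 18957 genes listed, and all 10 were among the 13036 genes that passed the filter on low counts. The comparison asks whether the RNA of other lamina genes was higher where Lmna had been deleted.

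Lamins are intermediate filament proteins that form a meshwork under the inner nuclear membrane. Lmna gives rise to the A-type lamins, lamin A and lamin C, by alternative splicing, while the B-type lamins come from the separate genes Lmnb1 and Lmnb2 and stay anchored in the membrane by a farnesyl lipid. Proteins with a LEM domain bind BAF, a small DNA-bridging protein, and through it tether chromatin to the lamina. Mutations of LMNA and of EMD are known causes of heart muscle disease in people.

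RNA-Seq had been performed on cardiac fibroblasts of 8 mice, 4 WT and 4 Pdgfra-Cre:LmnaF/F, with 1 library for each mouse. The cells were isolated from ventricles at 3 to 4 weeks of age and sorted by FACS as PDGFRA-positive, hematopoietic lineage-negative cells. All mice had the strain label C57BL/6 (mixed). In the Pdgfra-Cre:LmnaF/F mice both Lmna alleles carried a floxed exon 2, and a BAC transgene expressed Cre recombinase from the Pdgfra promoter. The WT mice were littermates with only wild-type alleles and so had no Cre. Libraries of mice with Cre alone were not analysed here, so an effect of Cre and an effect of the deletion cannot be told apart. The driver is not restricted to these cells, since other mesenchymal tissues also make PDGFRA and some cardiac myocytes of the embryo express the transgene's promoter.

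Cre removes exon 2 of Lmna, while the deposited values are counts over the whole gene. Reads from that exon therefore cannot be separated from reads of the rest of Lmna, and RNA that lacks only this exon would still be counted.

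The libraries held between 2080555 and 12502949 counts, with the lowest total in WT replicate 2 and the highest in Pdgfra-Cre:LmnaF/F replicate 4. Markers of cardiac fibroblasts summed to between 42438 and 59109 CPM (counts scaled to a common library size with TMM factors) in all 8 libraries, with none of 9 at 0. Of the other cell types, the 6 cardiac myocyte markers summed to 3074 CPM in Pdgfra-Cre:LmnaF/F replicate 4 and to between 169 and 557 CPM in the others. The leukocyte markers were also highest there, at 390.4 CPM, against 37.4 to 162 CPM elsewhere. Endothelial markers summed to 534 to 729 CPM in the WT and 409 to 514 CPM in the Pdgfra-Cre:LmnaF/F libraries, which did not overlap. Most of this sum was Tek, and the other 5 markers, at 157 to 241 CPM in the WT and 83.7 to 185 CPM in the Pdgfra-Cre:LmnaF/F libraries, overlapped. Only Pdgfra-Cre:LmnaF/F replicate 4 reached into the WT range of this 5-marker sum. Of the single markers, Tek and Cdh5 were lower in every Pdgfra-Cre:LmnaF/F library, and the rest overlapped. Cdh5 was at 8.13 to 38.3 CPM there, against 40.8 to 62.8 CPM in the WT. Mural markers (161 to 310.2 CPM) and mesothelial markers (6.67 to 40.3 CPM) overlapped between the genotypes, as did erythroid markers, which ranged from 16.8 to 666 CPM and were highest in Pdgfra-Cre:LmnaF/F replicate 1. Y-linked genes were near 0, at 0.207 to 1.96 CPM, in WT replicate 3 and Pdgfra-Cre:LmnaF/F replicates 1 to 3, and at 143 to 273 CPM in the other libraries. None of the genes of these 8 lists passed the edgeR test, and 3 had an unadjusted p under 0.05, namely Tek and Cdh5 of the endothelial list, lower, and Csf1r of the leukocyte list, higher in the Pdgfra-Cre:LmnaF/F cells. DESeq2 called Tek, and limma-voom called none of these genes. Cd68 and Csf1r were called, higher, with DESeq2 and 1 RUVr factor, which also called Tek, and Csf1r and Tnnt2, higher, with the Y-linked covariate. Cdh5, Eif2s3y and Uty were called, lower, with 2 RUVr factors, as were Kdm5d, Eif2s3y and Ddx3y without Pdgfra-Cre:LmnaF/F replicate 4 and Hba-a1 without Pdgfra-Cre:LmnaF/F replicate 1. The part of these cells, and of the depth, in the gene values was not tested.

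Among the 10 genes, Lmna was the one that differed between the genotypes past the threshold, and it fell to 30.4% of the WT mean. No B-type lamin, LEM-domain gene or partner passed the test in either direction. The test was the quasi-likelihood test of edgeR with Benjamini-Hochberg adjustment over all 13036 genes, in which an adjusted p under 0.05 was taken as a call. Over all genes 53 were called, which is 0.407%, of which 22 (0.169%) were higher and 31 (0.238%) were lower in the Pdgfra-Cre:LmnaF/F cells. The median log2 fold change of the 10 genes was -0.05, against 0.02 over all genes tested. Before adjustment 2 of the 10, Lmna and Tmpo, had a p under 0.05, and the share over all genes was 11.9%. In these same genes the groups did not overlap, with Lmna below and Tmpo above in every Pdgfra-Cre:LmnaF/F library, and groups without overlap in either direction were found for 8.03% of all genes. The p-values measure the spread between these mice. Values listed across the mice of a genotype follow the order of replicates 1 to 4.

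**Figure D1:**
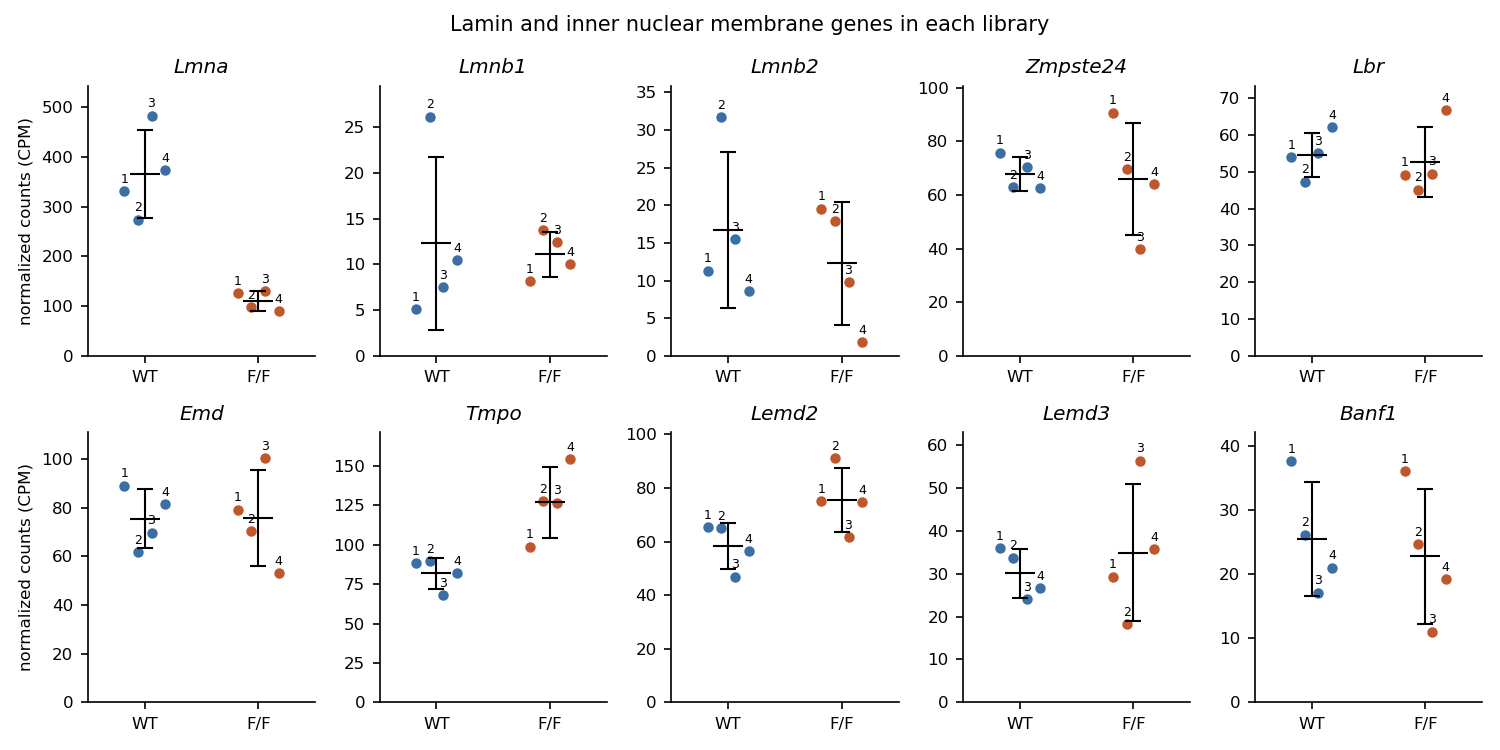
Normalized counts (CPM) of the 10 genes in each library of the WT and Pdgfra-Cre:LmnaF/F (F/F) mice, with points numbered by replicate and bars giving the mean and SD of 4 libraries. Lmna lies lower and Tmpo higher in every F/F library than in any WT library, and the other 8 genes overlap.

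Lmna (ENSMUSG00000028063.15, chr3:88480147-88509956) reached 331, 274, 483 and 374 CPM across the WT mice and 126, 97.4, 130.0 and 90.4 CPM across the Pdgfra-Cre:LmnaF/F mice. The lowest WT library was above the highest Pdgfra-Cre:LmnaF/F library. Means were 365 ± 88.4 CPM for the WT and 111 ± 20.0 CPM for the Pdgfra-Cre:LmnaF/F cells (SD, 4 mice each), and the log2 fold change was -1.72 ± 0.22 (SE; adjusted p = 0.00492, edgeR). Its 95% interval ran from -2.20 to -1.24, which is 0.218 to 0.422 times the WT level.
Each Pdgfra-Cre:LmnaF/F library kept between 24.7% and 35.6% of the WT mean. The gene was read with 934 to 1220 counts in these libraries, so the remaining RNA was far above the floor of 3 counts. In RNA of bulk cells, fewer cells that express Lmna and less Lmna RNA in each cell cannot be told apart.

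The genes that neighbour Lmna on chromosome 3 did not pass the test. On one side these are Sema4a, Slc25a44 and Pmf1, with log2 fold changes of -0.53, -0.05 and -0.38, and on the other Mex3a, Lamtor2 and Ubqln4, with -0.99, -0.34 and -0.14. Their adjusted p (edgeR) lay between 0.805 and 0.964, and the genotypes overlapped in all 6. The nearest of them, Sema4a, lies 18965 bases from Lmna.

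Lmnb1 encodes lamin B1 and is located on chromosome 18, in a gene with no annotated overlap with another. It reached 5.14, 26.2, 7.51 and 10.5 CPM across the WT mice and 8.17, 13.8, 12.4 and 9.9999 CPM across the Pdgfra-Cre:LmnaF/F mice. WT replicate 2 stood above all other libraries, and the remaining WT libraries and the Pdgfra-Cre:LmnaF/F libraries overlapped. The log2 fold change was -0.11 ± 0.52 (SE; adjusted p = 0.964, edgeR), with a 95% interval from -1.23 to 1.01. Without WT replicate 2 the estimate turned to 0.52 (adjusted p = 0.861), which did not pass the test either. Lmnb1 was read with 47 to 132 counts per library, and the high CPM of WT replicate 2 rests on 52 counts in the smallest library.

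Lmnb2 encodes lamin B2 (chr10:80901203-80918245). It reached 11.3, 31.7, 15.5 and 8.59 CPM across the WT mice and 19.6, 17.9, 9.79 and 1.83 CPM across the Pdgfra-Cre:LmnaF/F mice. The highest value was again in WT replicate 2, and the lowest, from 22 counts, was in Pdgfra-Cre:LmnaF/F replicate 4, the library with the most myocyte and leukocyte markers. Whether those cells had a part in the low value was not tested. The log2 fold change was -0.42 ± 0.61 (SE; adjusted p = 0.860, edgeR), with a 95% interval from -1.72 to 0.88. It was 0.06 (adjusted p = 0.990) without WT replicate 2 and -0.05 (adjusted p = 0.986) without Pdgfra-Cre:LmnaF/F replicate 4. Other settings moved it down, to -1.54 (adjusted p = 0.450) with the Y-linked covariate, -0.84 (adjusted p = 0.379) with 2 RUVr factors and -0.70 (adjusted p = 0.714) with the replicate block, and none made it a call. With WT replicate 2 and Pdgfra-Cre:LmnaF/F replicate 4 left out together, Lmnb1 was at 0.57 (adjusted p = 0.854) and Lmnb2 at 0.42 (adjusted p = 0.879).

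Lmnb1 RNA is known to fall in cells that stop dividing and become senescent, and the libraries differed in the RNA of mitotic genes. The 12 mitotic genes summed to 20.8, 348, 118 and 29.0 CPM across the WT mice and 16.8, 12.5, 13.3 and 23.0 CPM across the Pdgfra-Cre:LmnaF/F mice. WT replicate 2 was the highest library for these genes as it was for Lmnb1 and Lmnb2. In WT replicate 3, the next highest for the mitotic genes, Lmnb1 was at 7.51 CPM, below all 4 Pdgfra-Cre:LmnaF/F libraries. Lmnb2 was at 15.5 CPM there, the second highest WT value. That is below Pdgfra-Cre:LmnaF/F replicates 1 and 2 (19.6 and 17.9 CPM) and above replicates 3 and 4 (9.79 and 1.83 CPM). Of the 9 mitotic genes tested, edgeR called none, 6 had an unadjusted p under 0.05, DESeq2 called 4 and limma-voom none. DESeq2 with 1 RUVr factor called 5, edgeR without a filter called Mki67 and Top2a, and edgeR with 2 RUVr factors called Mki67, all lower in the Pdgfra-Cre:LmnaF/F cells. Over all 13036 genes DESeq2 called 303, DESeq2 with 1 RUVr factor 455 and edgeR with 2 RUVr factors 329. Without a filter edgeR called 274 of 18957, and an unadjusted p under 0.05 was found for 11.9% of all genes in the main fit. The median log2 fold change of the 9 mitotic genes was -2.69. The lowest p among them belonged to Mki67, which encodes the proliferation antigen Ki-67, with a log2 fold change of -3.91 ± 0.94 (SE; adjusted p = 0.103, edgeR), followed by Cdc20, an activator of the anaphase-promoting complex, and Ccnb2, a mitotic cyclin, with -2.69 and -4.14 (adjusted p = 0.222 and 0.257). The part of cell division in the B-type lamin values was not tested.

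**Figure D2:**
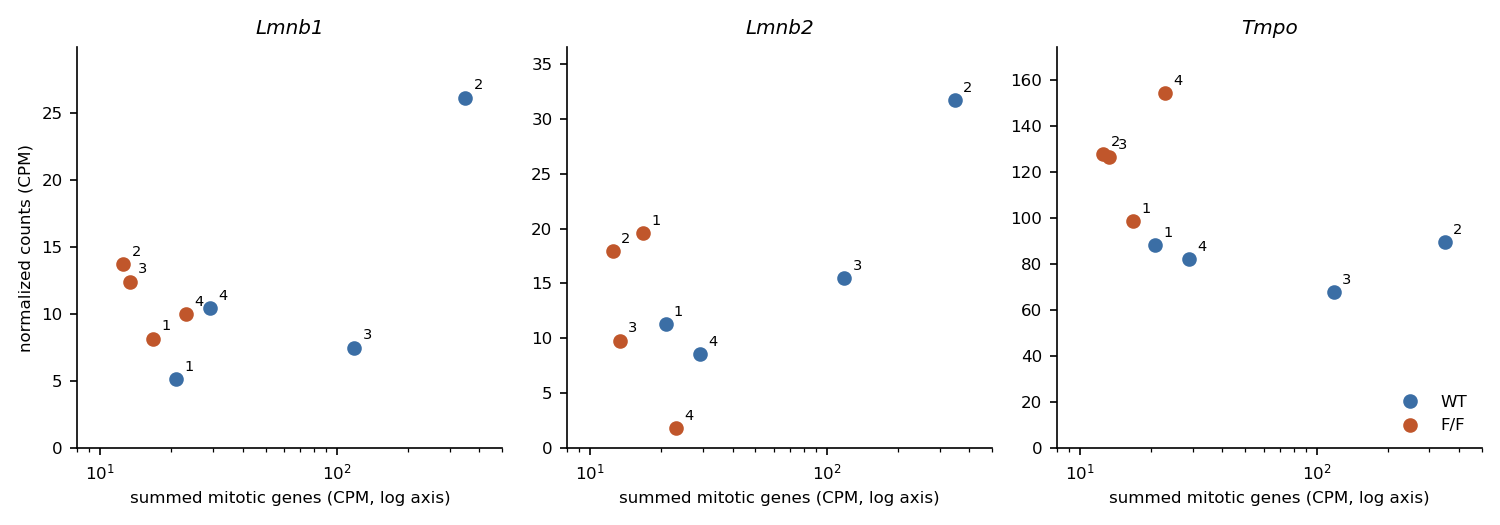
CPM of Lmnb1, Lmnb2 and Tmpo in each library against the summed CPM of 12 mitotic genes on a log axis, with points numbered by replicate and coloured by genotype (F/F, Pdgfra-Cre:LmnaF/F). WT replicate 2, at 348 CPM of mitotic genes, holds the highest Lmnb1 and Lmnb2 values but not the highest Tmpo value.

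To set the 3 lamin genes beside each other, CPM was divided by the exonic length of each gene in kb. On this scale the WT level of Lmna was 62.6 ± 15.1 CPM per kb (SD, n = 4), that of Lmnb1 4.16 ± 3.20 and that of Lmnb2 3.91 ± 2.41. Lmna RNA stood above that of both B-type genes in every WT library. In the Pdgfra-Cre:LmnaF/F libraries Lmna was at 19.0 ± 3.43 CPM per kb (SD, n = 4), still above the 3.74 ± 0.84 of Lmnb1 and the 2.86 ± 1.91 of Lmnb2.

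The ratio of Lmna to the sum of Lmnb1 and Lmnb2, per length, was 13.0, 2.89, 13.4 and 11.6 in WT replicates 1 to 4. In Pdgfra-Cre:LmnaF/F replicates 1 to 4 it was 2.95, 1.89, 3.44 and 4.07. WT replicate 2 fell within the range of the Pdgfra-Cre:LmnaF/F libraries, and the other 3 WT libraries lay above it, with a mean of 12.7 ± 0.98 (SD, n = 3). On the log2 scale the mean ratio was different by -1.56 in the Pdgfra-Cre:LmnaF/F cells, or by -2.09 without WT replicate 2, given as a description with no test.

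The summed level of the 3 lamin genes was 61.1, 63.1, 88.9 and 69.6 CPM per kb in WT replicates 1 to 4 and 28.9, 25.5, 28.7 and 19.3 CPM per kb in Pdgfra-Cre:LmnaF/F replicates 1 to 4. The groups did not overlap, and the Pdgfra-Cre:LmnaF/F mean was 36.3% of the WT mean. The mean of Lmna fell by 43.6 CPM per kb, while the B-type sum was 8.07 ± 5.49 CPM per kb in the WT and 6.61 ± 2.11 CPM per kb in the Pdgfra-Cre:LmnaF/F libraries (SD, n = 4 each). A B-type rise as large as the fall of Lmna would have brought the sum to 51.7 CPM per kb, 6.40 times its WT mean. With WT replicate 2 left out of both the fall of Lmna and the B-type mean, it would have reached 54.2 CPM per kb, 10.1 times that mean. The 95% intervals of the fitted fold changes ended at 2.01 times for Lmnb1 and at 1.84 times for Lmnb2 with all libraries, and at 3.16 and 2.72 times without WT replicate 2. With Pdgfra-Cre:LmnaF/F replicate 4 left out as well, the intervals ended at 3.52 and 2.75 times. Rises of either gene up to these sizes are within the intervals. These are levels of RNA, and lamin protein was not measured in these files.

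**Figure D3:**
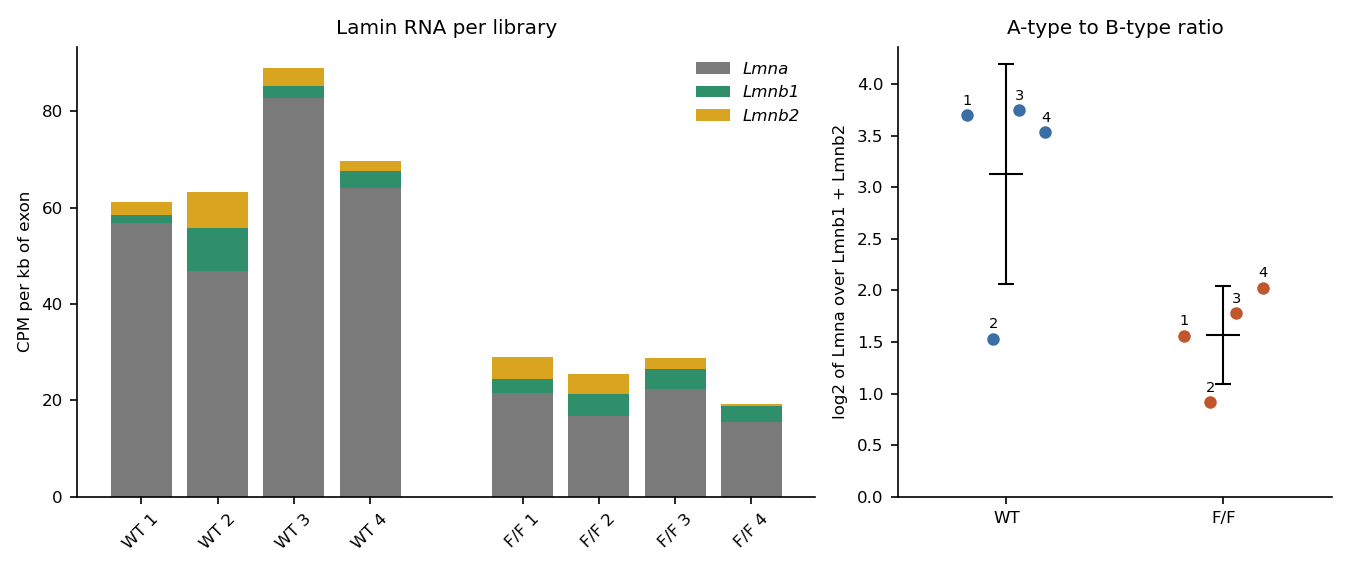
The left panel stacks Lmna, Lmnb1 and Lmnb2 in CPM per kb of exon for each library, and the right panel gives the log2 ratio of Lmna to the B-type sum, with the mean and SD of 4 libraries (F/F, Pdgfra-Cre:LmnaF/F). The F/F bars reach 19.3 to 28.9 CPM per kb against 61.1 to 88.9 in the WT. Among the WT libraries replicate 2 has the largest B-type share, and its ratio lies in the F/F range.

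Tmpo encodes LAP2, a LEM-domain protein whose alpha isoform binds A-type lamins in the nuclear interior and whose beta isoform binds B-type lamins at the membrane (chr10:91147571-91181315). It reached 88.1, 89.6, 67.9 and 82.0 CPM across the WT mice and 98.7, 128, 127 and 154 CPM across the Pdgfra-Cre:LmnaF/F mice. All 4 Pdgfra-Cre:LmnaF/F values were above the highest WT value. The log2 fold change was 0.63 ± 0.20 (SE), a ratio of 1.55, with a 95% interval from 0.21 to 1.06. After adjustment over all genes it did not pass the test (adjusted p = 0.206, edgeR), and its p ranked at 411 of 13036. Over the 11 other settings for the whole table it was not called either, with log2 fold changes from 0.52 to 0.79 and adjusted p from 0.0577 (DESeq2 with 1 RUVr factor) to 0.338 (replicate block). With any 1 library left out it stayed between 0.52 and 0.73 (adjusted p = 0.141 to 0.441). The gene-level counts do not separate its isoforms.

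Emd encodes emerin, the LEM-domain protein lost in X-linked Emery-Dreifuss muscular dystrophy (chrX:74254687-74261548). Its values were 89.1, 61.9, 69.8 and 81.4 CPM across the WT mice and 79.2, 70.3, 100.4 and 53.1 CPM across the Pdgfra-Cre:LmnaF/F mice. The genotypes overlapped, with the highest and the lowest value both among the Pdgfra-Cre:LmnaF/F libraries. The estimate was -0.0019 on the log2 scale, with an SE of 0.23, a 95% interval from -0.49 to 0.49 and an adjusted p of 0.998 (edgeR).

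Lemd2 and Lemd3 encode transmembrane LEM-domain proteins, of which LEMD3, also called MAN1, restrains SMAD signalling. Lemd2 (chr17:27189600-27204469) reached 65.3, 64.9, 47.0 and 56.4 CPM across the WT mice and 75.0, 91.0, 61.7 and 74.7 CPM across the Pdgfra-Cre:LmnaF/F mice. Of these, 3 Pdgfra-Cre:LmnaF/F libraries lay above the WT, while replicate 3 was within the WT range. The log2 fold change of Lemd2 was 0.38 ± 0.21 (SE; adjusted p = 0.527, edgeR), with a 95% interval from -0.07 to 0.83. Lemd3 (chr10:120923413-120979332) reached 36.0, 33.7, 24.0 and 26.6 CPM across the WT mice and 29.3, 18.2, 56.3 and 35.7 CPM across the Pdgfra-Cre:LmnaF/F mice. Its Pdgfra-Cre:LmnaF/F libraries spread on both sides of the WT range, with a coefficient of variation of 45.9% against 18.9% in the WT. The log2 fold change of Lemd3 was 0.22 ± 0.33 (SE; adjusted p = 0.866, edgeR), and it was -0.11 (adjusted p = 0.952) without Pdgfra-Cre:LmnaF/F replicate 3.

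Banf1 encodes BAF, the DNA-bridging partner of the LEM domain (chr19:5364638-5367168). Its values were 37.7, 26.2, 17.1 and 21.0 CPM across the WT mice and 36.1, 24.7, 11.1 and 19.2 CPM across the Pdgfra-Cre:LmnaF/F mice. The genotypes overlapped over most of their range. The estimate was -0.16 ± 0.38 on the log2 scale (SE; adjusted p = 0.923, edgeR), with a 95% interval from -0.97 to 0.64.

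Lbr encodes the lamin B receptor, which binds B-type lamins and heterochromatin and also acts as a sterol reductase (chr1:181815335-181843046). It reached 53.9, 47.3, 55.1 and 62.0 CPM across the WT mice and 49.2, 45.2, 49.5 and 66.7 CPM across the Pdgfra-Cre:LmnaF/F mice. The groups overlapped, and this gene had one of the narrowest intervals, from -0.52 to 0.41 around a log2 fold change of -0.06 ± 0.22 (SE; adjusted p = 0.957, edgeR). On the linear scale its interval ended at 1.33 times the WT level.

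Zmpste24 encodes the zinc metalloprotease that cleaves farnesylated prelamin A to mature lamin A (chr4:121059237-121098241). Its values were 75.8, 62.9, 70.3 and 62.6 CPM across the WT mice and 90.6, 69.6, 39.7 and 64.1 CPM across the Pdgfra-Cre:LmnaF/F mice. The WT libraries lay close together, with a coefficient of variation of 9.33%, and the Pdgfra-Cre:LmnaF/F libraries spread above and below them, at 31.7%. The log2 fold change was -0.04 ± 0.24 (SE; adjusted p = 0.967, edgeR), with a 95% interval from -0.56 to 0.48.

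**Figure D4:**
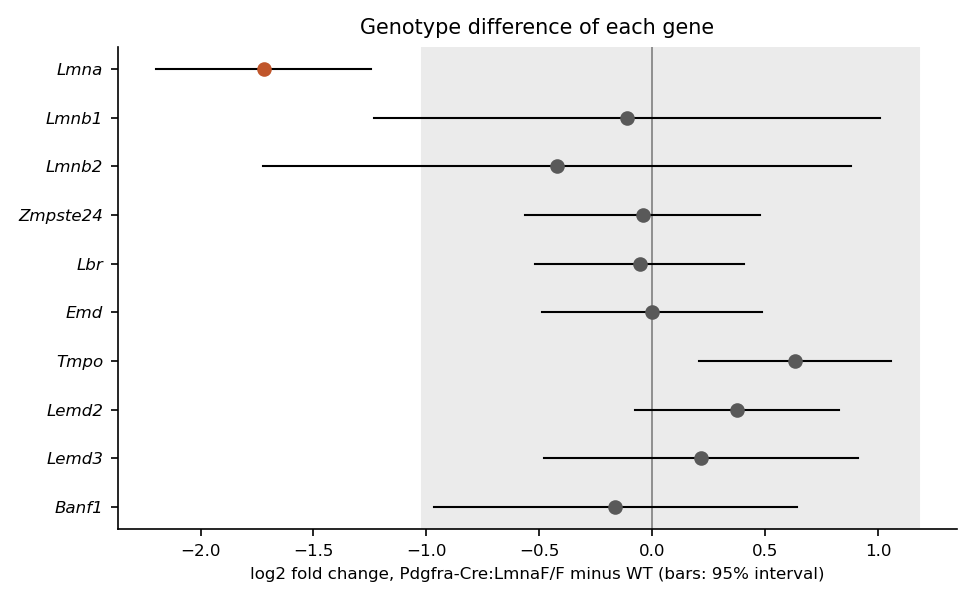
Log2 fold change of each gene, Pdgfra-Cre:LmnaF/F minus WT, with its 95% interval from the edgeR fit of 4 against 4 libraries. The shaded band holds all 13036 genes between percentiles 5 and 95, and Lmna, in orange, is the one gene called and lies outside the band.

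Some of these counts may include reads of other genes. The overlaps given here are between whole annotated genes, introns included, and the part of them in exons was not measured. Lbr overlaps Dnah14 over 440 bases on the opposite strand, and Banf1 overlaps Eif1ad over 428 bases, also on the opposite strand. The libraries were strand-specific, but the strand setting of the counting is not given in the sources used here. Neither Dnah14 (log2 fold change 0.25 ± 1.47, SE; adjusted p = 0.969, edgeR) nor Eif1ad (0.25 ± 0.37, SE; adjusted p = 0.862) passed the test. Genes that were not among those tested also overlap on the opposite strand, namely Gm26724 with Lemd2 over 2040 bases, Gm26765 with Tmpo over 1080 bases and Gm16166 with Lemd3 over 787 bases. On the same strand Emd overlaps the pseudogene Gm14686 over 343 bases, and Zmpste24 overlaps Gm23540 over 164 and Gm26186 over 125 bases. Lemd3 overlaps Gm23632 over 125 bases and Lbr overlaps Gm26004 over 116 bases, also on the same strand.

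Across the 10 genes, levels in the WT per kb of exon were in the order Lmna, Emd, Banf1, Lemd2, Lbr, Zmpste24, Tmpo, Lemd3, Lmnb1 and Lmnb2. They ran from 62.6 CPM per kb for Lmna over 30.0 ± 4.80 for Emd, 17.0 ± 5.96 for Banf1 and 11.98 ± 1.77 for Lemd2 to 3.91 CPM per kb for Lmnb2 (SD, n = 4). Of the neighbours in this order, those whose WT ranges did not overlap were Lmna with Emd and Zmpste24 with Tmpo, and all other neighbours overlapped. Among 13006 tested genes with a length, Lmna was above 95.4% in the WT and above 82.5% in the Pdgfra-Cre:LmnaF/F cells. In the latter Emd, at 30.1 ± 7.82 CPM per kb, took the first place and Lmna the second, with ranges that overlapped slightly (21.1 to 39.9 for Emd, 15.5 to 22.3 for Lmna). With coding length in place of exonic length 6 of the 10 genes changed place in the WT order, so the order of the lower ones is not firm. The places in the Pdgfra-Cre:LmnaF/F cells, the first ones included, hold for exonic length only and were not examined with coding length.

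The other genes of the nuclear envelope were read from the same fit. Of 15 further genes of the inner nuclear membrane, 13 were tested and none was called, 1 had an unadjusted p under 0.05, 7 estimates were above 0 and 6 below, and the median log2 fold change was 0.02, as over all genes to 2 decimals. The lowest p among them belonged to Ankle2, a LEM-domain protein that controls the phosphorylation of BAF after mitosis, with 73.7, 58.4, 49.9 and 71.4 CPM across the WT mice and 78.9, 89.5, 97.5 and 86.5 CPM across the Pdgfra-Cre:LmnaF/F mice. Every Pdgfra-Cre:LmnaF/F value was above the WT values, and the log2 fold change was 0.47 ± 0.20 (SE; adjusted p = 0.373, edgeR), which did not pass the test. Tmem120a and Tmem201 followed, with 0.55 and 0.34 (adjusted p = 0.596 and 0.750). Sun1 and Sun2, whose products link the lamina to the cytoskeleton, were at -0.09 and -0.04, and Tmem43, which encodes LUMA, was at -0.15 (adjusted p = 0.844). These 3 genes were named after their values had been seen.

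The genes of prelamin processing, which encode enzymes that add and trim the farnesyl tail and the prelamin A binding protein Narf, were all 5 tested and none was called, while 1 had an unadjusted p under 0.05, with a median log2 fold change of -0.21. Fnta, the alpha subunit of the farnesyltransferase, was at 0.58 (adjusted p = 0.364), Fntb, the beta subunit, at -0.70 (adjusted p = 0.752), and Rce1, which clips the last residues, at -0.37 (adjusted p = 0.705). Of the genes for BAF kinases, envelope resealing and cytosolic DNA sensing, 8 were tested and none was called or had an unadjusted p under 0.05, with a median of 0.15. The BAF kinase gene Vrk1 was at 0.29 (adjusted p = 0.858), Vps4b, an ATPase that drives membrane resealing, at 0.25 (adjusted p = 0.715), and the DNA sensor gene Cgas, read with at most 38 counts in a library, at 1.04 ± 1.20 (SE; adjusted p = 0.821, edgeR). Both sterol reductase genes related to Lbr, Tm7sf2 at 0.70 (adjusted p = 0.860) and Dhcr7 at -0.02 (adjusted p = 0.992), were not called. DESeq2 and limma-voom called no gene of these 4 lists either.

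Inhibitors of cyclin-dependent kinases, which hold cells out of the cycle, numbered 6, of which 4 were tested and none was called, by edgeR, DESeq2 or limma-voom, with a median log2 fold change of 0.30 and 1 unadjusted p under 0.05. Cdkn1c, which encodes p57, reached 46.5, 27.7, 15.0 and 43.3 CPM across the WT mice and 57.2, 48.6, 84.4 and 81.1 CPM across the Pdgfra-Cre:LmnaF/F mice, all above the WT, with a log2 fold change of 1.02 ± 0.33 (SE; adjusted p = 0.209, edgeR). It was called with 2 RUVr factors, with DESeq2 and 1 RUVr factor, and with the Y-linked covariate. Cdkn1b was at 0.30 (adjusted p = 0.567) and Cdkn2c at 0.31 (adjusted p = 0.804), and the remaining one, Cdkn1a, which encodes p21, was at -0.14 (adjusted p = 0.947) and is named here to complete the 4 after its value had been seen.

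**Figure D5:**
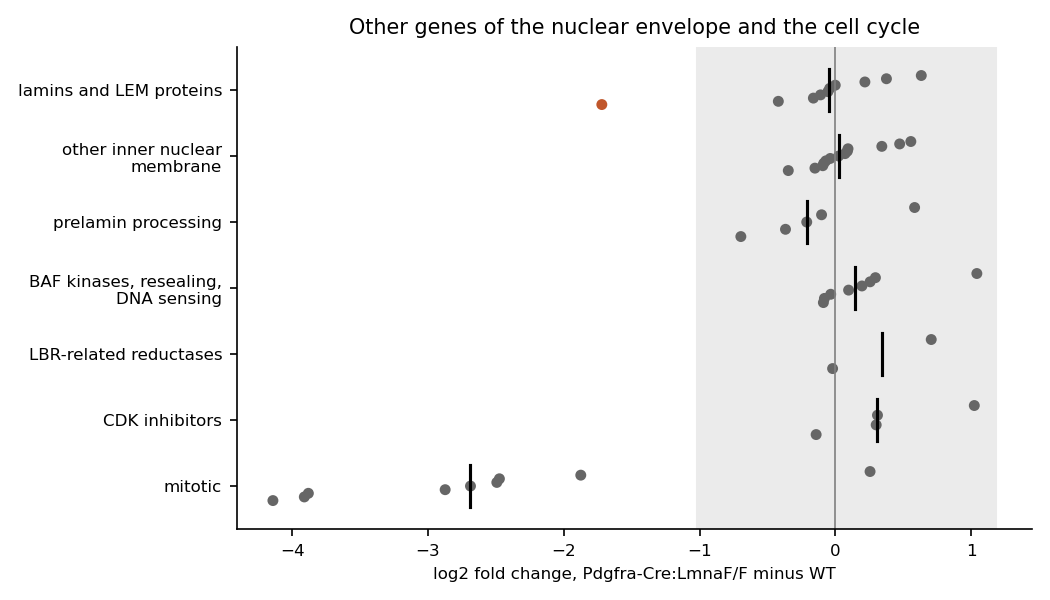
Log2 fold change, Pdgfra-Cre:LmnaF/F minus WT, of each tested gene in 7 lists, with the median of each list as a vertical line and all tested genes between percentiles 5 and 95 shaded. Lmna (orange) is the one gene called; the estimates of most mitotic genes lie below the band without passing the test.

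The genes whose log2 CPM moved most like that of each lamin over the 8 libraries were found by Pearson correlation, given as a description. Closest to Lmna were Bcap31 (r = 0.986), Wfdc1 (r = 0.980) and 1600014C10Rik (r = 0.970), and of these Wfdc1 was itself called, with a log2 fold change of -2.97 (adjusted p = 0.00104, edgeR). Closest to Lmnb1 were Pcdh10 (r = 0.952), Arrdc4 (r = 0.943) and Plch2 (r = 0.927), and closest to Lmnb2 were Plekhg2 (r = 0.989), Sema4a (r = 0.981) and Atp8b2 (r = 0.960). These 8 points share the difference in genotype and in depth, for both B-type lamins the high value of WT replicate 2, and for Lmnb2 the low value of Pdgfra-Cre:LmnaF/F replicate 4, which on the log2 scale lies furthest from the others.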

How the data were processed

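RNA-Seq counts of PDGFRA-positive cardiac fibroblasts from 4 WT and 4 Pdgfra-Cre:LmnaF/F mice were analysed, and genotypes and replicate numbers came from the sample labels. The authors depleted ribosomal RNA, used HISAT2 to place 150 bp paired-end reads on mm10, and obtained gene counts from featureCounts with GENCODE annotation. The deposited values are raw counts per gene symbol. The authors named RUV normalization and DESeq2, which the deposited counts do not include. Genes were kept with filterByExpr, scaled with TMM and tested by quasi-likelihood in edgeR 4.0.16 (R 4.3.3), with genotype as the only term, Benjamini-Hochberg adjustment and a threshold of 0.05. The design has 4 mice against 4, and intervals cover 95%. Log2 CPM for correlations used a prior count of 2. Lengths came from GENCODE M21, which shares the mm10 coordinates, and 13006 of 13036 tested symbols matched it. The procedure was tested on simulated counts.

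The genes and lists were chosen with earlier results of these data known. All 10 genes were named whatever their values. From each other list the genes called and up to 3 of lowest p were named, along with the 3 tested genes on each side of Lmna and the 3 whose log2 CPM correlated best with each lamin. Alternatives were DESeq2 1.42.0, limma-voom 3.58.1 with quality weights, upper-quartile or RLE scaling, a minimum of 10 counts in every library or no filter at all, 1 or 2 RUVr factors, DESeq2 with 1 RUVr factor, the replicate block, a Y-linked covariate, and leaving out each library. Leaving out WT replicate 2 and Pdgfra-Cre:LmnaF/F replicate 4 together, and the order by coding length, were chosen after seeing the data. Depth was 2080555 to 12502949 counts per library and covers counting error only. In the list of DNA sensing genes, Mb21d1 and Sting1 are other symbols of Cgas and Tmem173, which were read under the latter names, and Trex1 was not analysed here. The sequence of the floxed exon is not reported here.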

Additional observations from a re-analysis of the deposited data

Results flagged for a closer look

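Of 24 groups of 4 libraries examined with Dixon's test at the 95% level, 1 held a library far from the others, and chance alone flags about 5% of groups. The log2 ratio of Lmna to the sum of Lmnb1 and Lmnb2 was 1.53 in WT replicate 2, against 3.70, 3.75 and 3.53 in WT replicates 1, 3 and 4, a gap of 0.902 of the range. This library had the lowest total (2080555 counts) and the highest sum of mitotic genes (348 CPM), and read Lmnb1 and Lmnb2 with 52 and 63 counts. The part of these in its ratio was not tested.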

How the results depend on the processing

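Lmna was the only one of the 10 genes called in all 21 settings, with log2 fold changes from -1.91 to -1.57 over the 11 other settings and from -1.84 to -1.56 with 1 library left out. The other settings turned the sign of 6 of 110 gene values, all near 0: Lmnb1 became 0.18 with limma-voom, 0.10 with the replicate block and 0.033 with the Y-linked covariate, Lbr became 0.032 with that covariate, Zmpste24 became 0.015 with limma-voom, and Emd became 0.015 with at least 10 counts in every library. With 1 library left out the ranges that crossed 0 were -0.37 to 0.52 for Lmnb1, -0.74 to 0.06 for Lmnb2, -0.19 to 0.0096 for Lbr, -0.17 to 0.13 for Emd, -0.11 to 0.43 for Lemd3, -0.48 to 0.10 for Banf1 and -0.24 to 0.14 for Zmpste24. Without WT replicate 2 and Pdgfra-Cre:LmnaF/F replicate 4, Lmnb1 was 0.57, Lmnb2 0.42, Emd 0.05 and Lbr -0.25. Over the 11 other settings Lmnb2, at -0.42, kept its sign and moved to -1.54 with the Y-linked covariate, -0.84 with 2 RUVr factors, -0.70 with the replicate block and -0.22 with limma-voom.

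The number of genes called was 53 and rose to 303 with DESeq2, 126 with limma-voom, 274 without a filter, 81 and 329 with 1 and 2 RUVr factors, 455 with DESeq2 and 1 RUVr factor and 113 with the Y-linked covariate, and it lay between 13 (without WT replicate 4) and 76 with 1 library left out. It fell to 24 without WT replicate 1, 24 without WT replicate 2, 26 without Pdgfra-Cre:LmnaF/F replicate 2 and 17 without Pdgfra-Cre:LmnaF/F replicate 3. The share of calls that were higher was 41.5%, and 54.3% with 1 RUVr factor, 53.6% with DESeq2 and that factor and 53.1% with the Y-linked covariate, and it ran from 7.69% (without WT replicate 4) to 52.6% (without Pdgfra-Cre:LmnaF/F replicate 4) with 1 library left out. The cause was not tested.

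Same-numbered libraries did not deviate together over all genes (r = -0.027, -0.030, -0.0041 and 0.040 for replicates 1 to 4). These correlations cannot tell whether such libraries were handled together, and no source used here says that the numbers pair mice. With the replicate block 36 genes were called, and 1 of the 10 genes, Lmna, at -1.71 (adjusted p = 0.0107). The lamin ratio and sum, with no test, ranged from -2.09 to -1.34 and from -1.53 to -1.34 on the log2 scale with 1 library left out, and were -1.50 and -1.54 with coding length. In the WT order by length, leaving out 1 library moved at most 4 genes. Lmnb1 and Lmnb2 were read with few counts, 22 to 189 per library.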

Other observations

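Emd lies on the X chromosome, and the libraries differed in Y-linked RNA. Emd was at 89.1, 61.9, 81.4 and 53.1 CPM in the 4 libraries with Y-linked RNA (WT replicates 1, 2 and 4, Pdgfra-Cre:LmnaF/F replicate 4) and at 69.8, 79.2, 70.3 and 100.4 CPM in the 4 near 0, which overlapped. With Y-linked RNA as a covariate its log2 fold change between genotypes was -0.12 (adjusted p = 0.885, edgeR).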
